A study of Mus musculus with 8 samples.

Results

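Chemokine ligands and receptors were read in single cells of mouse islets after treatment with vehicle or with the focal adhesion kinase inhibitor (FAKi) PF562271. Members were the rows of the count table whose symbol begins with Ccl, Cxcl, Ccr or Cxcr and a number, together with Cx3cl1 and Cx3cr1. They made up 46 of the 19945 genes, of which 32 were ligands and 14 were receptors. Of these, 44 had at least 20 UMIs (unique molecular identifiers, each standing for 1 captured RNA molecule) over all cells, and the other 2, Cxcl3 and Ccr4, had fewer. Cxcl11, Ccl21b, Ccr3, Ccr8 and Cxcr1 were not analysed here.

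Both groups were wild-type mice of 6 to 12 weeks at the start, given vehicle or PF562271 at 50 mg/kg by oral gavage 2 times a day for 3 weeks, with islets taken 10 days after the last dose. About 1200 handpicked islets of 5 pooled mice entered 1 single-cell library per condition, and its reads came from 4 lanes, which account for the 8 samples. The comparison is therefore between 2 libraries without replicates. No test between conditions was possible, and each 95% interval covers counting error only. A level is given as CPM, the UMIs of a gene summed over all cells of an annotated class and scaled to 1000000 UMIs of that class, with an exact Poisson interval. UMIs were counted at the 3′ end of transcripts, so that CPM carries no length term.

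Chemokines are small secreted proteins that bind to matrix and cell surfaces and draw leukocytes along a gradient. Their receptors couple to Gi proteins and are carried mainly by leukocytes, and most receptors accept several ligands. Some ligands, such as Cxcl12, Ccl19 and Ccl21a, are made constitutively by stromal or endothelial cells and position resident leukocytes. Others, such as Ccl2, Cxcl1, Cxcl2 and Cxcl10, are induced by NF-κB or interferon signalling in many cell types. Tissue digestion alone is known to induce part of this second group.

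The vehicle library held 3776 cells and 59514118 UMIs, and the FAKi library 3183 cells and 57836783 UMIs. Members took 32292 UMIs of the vehicle library (543 CPM) and 8308 of the FAKi library (144 CPM), which mixes levels within classes with unequal numbers of cells per class. Annotated macrophages numbered 129 and 55 cells in vehicle and FAKi, endothelial cells 543 and 269, fibroblasts 264 and 63, pericytes 137 and 64, and ductal cells 498 and 156. Annotated T cells (168 and 28) and B cells (113 and 9) fell short of 50 cells in the FAKi library and entered no count. The libraries shared 4 cell barcodes, whose cells held 2 member UMIs.

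The annotation was checked against marker genes. Macrophages, endothelial cells, fibroblasts, pericytes and ductal cells carried their markers in both libraries, with C1qa at 3093 and 3452 CPM in macrophages, Plvap at 3929 and 3395 CPM in endothelial cells, and Sox9 at 552 and 720 CPM in ductal cells. Fibroblasts held Col1a1 at 4146 and 2507 CPM, and pericytes Rgs5 at 8872 and 6049 CPM. The 5 listed β-cell markers, among them Ins1 and Ins2, also summed to 115125 and 119568 CPM in macrophages and 54506 and 80323 CPM in endothelial cells. They summed to 66738 and 132989 CPM in fibroblasts, 20799 and 32743 CPM in pericytes, and 24094 and 53723 CPM in ductal cells. The lymphocyte labels held only in part in the FAKi library. Of its 28 annotated T cells, 3 had a UMI of Cd3e, Cd3d or Trac, against 115 of 168 in vehicle, and 12 of the 28 took at least 10% of their UMIs from insulin. Other genes carried by T cells were found more widely, with Il7r in 11 of 28 and 75 of 168 cells (39.3% and 44.6%) and Cxcr6 in 10 and 45 (35.7% and 26.8%). Of its 9 annotated B cells, 5 had Xcr1 and no Ms4a1, whereas 0 of the 113 vehicle B cells had Xcr1, the XCL1 receptor of cross-presenting dendritic cells. The other 4 all had Cd79a (1305 CPM) and 3 of them Ms4a1 (653 CPM), both genes of B cells. FAKi values of these 2 classes are given below as values of those annotated cells only. Neutrophil markers (S100a8, S100a9, Csf3r and Retnlg) summed to 5745 CPM in vehicle and 23.6 CPM in FAKi macrophages. S100a8 was found in 6 of 129 vehicle and 0 of 55 FAKi cells of that class, as was S100a9. The part of these markers in the values of that class was not tested.

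**Figure D1:**
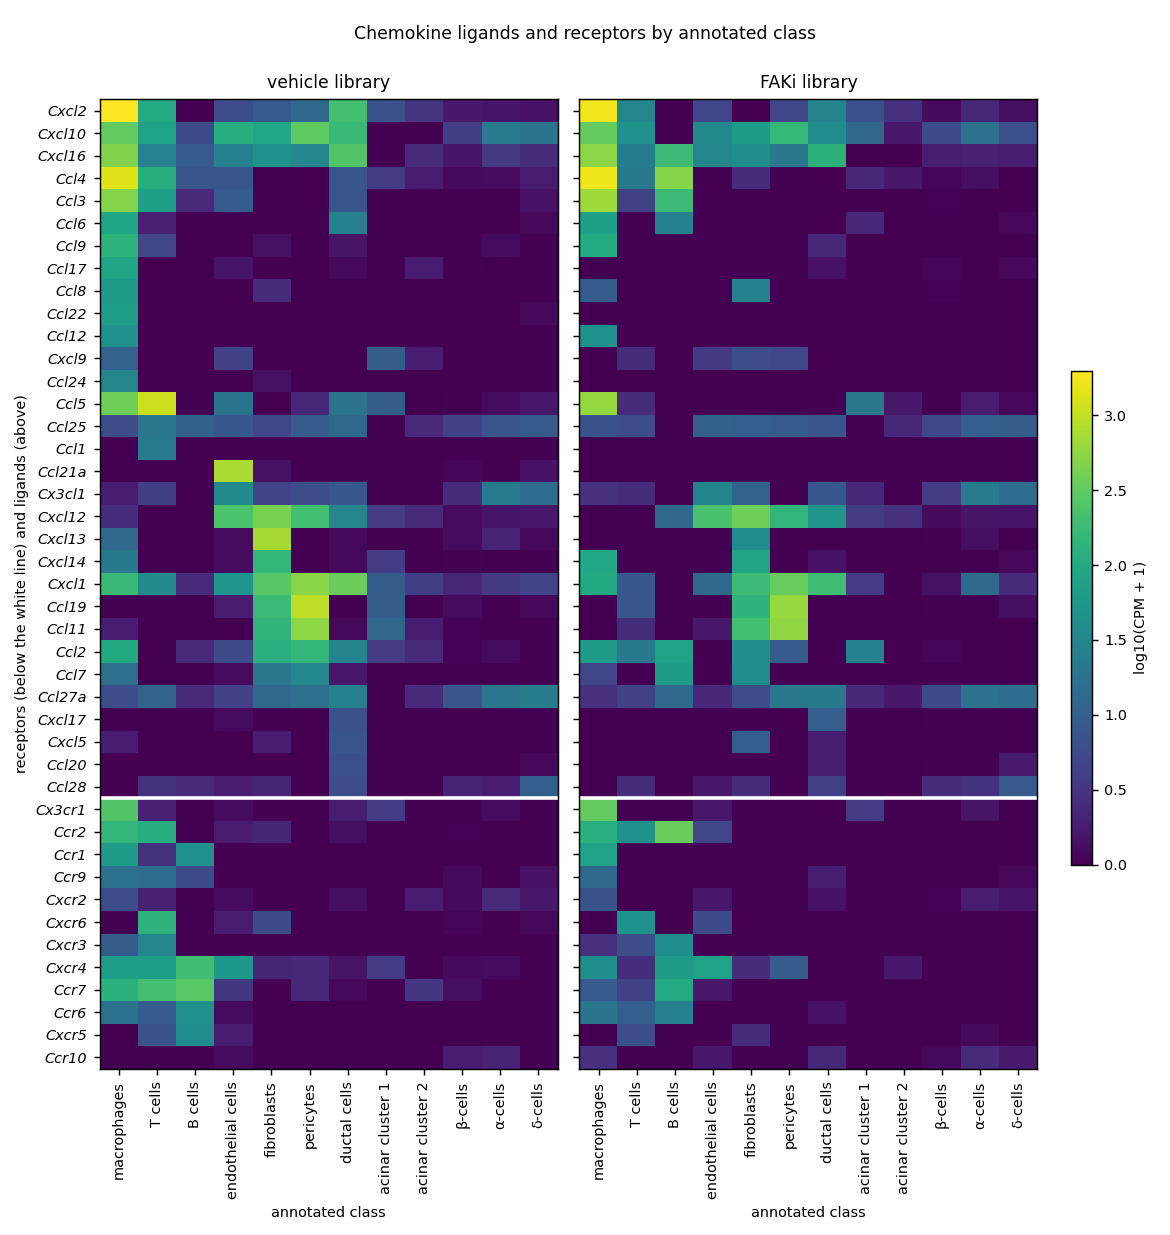
Level of members with at least 20 UMIs over all cells (rows, ligands above and receptors below the white line) in the 12 annotated classes (columns) of the vehicle (left) and FAKi (right) libraries, as log10(CPM + 1). Ligands fill the macrophage, stromal and ductal columns, with Cxcl2 in macrophages at 1982 and 1672 CPM, whereas receptors are found almost wholly in the leukocyte columns and the Cxcr4 row reaches endothelial cells.

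Sources of ligands differed by class. Summed over the 32 ligands, macrophages stood at 5899 CPM in vehicle (95% interval 5763 to 6038) and 5954 CPM in FAKi (5744 to 6170). Pericytes held 2769 and 1897 CPM, fibroblasts 2213 and 1275 CPM, endothelial cells 1285 and 354 CPM, and ductal cells 1175 and 485 CPM. A few cells carried part of these sums. Ccl21a made up 760 of the 1285 endothelial CPM in vehicle, from 14 of 543 cells, and without it the sums were 525 and 354 CPM. Cxcl13 made up 714 of the 2213 fibroblast CPM, from 10 of 264 cells, and without it the sums were 1499 and 1235 CPM. The endocrine classes were low, with 19.7 and 20.4 CPM in β-cells, 77.6 and 82.9 CPM in α-cells, and 80.6 and 55.1 CPM in δ-cells. Receptors summed to 794 and 655 CPM in macrophages, 62.1 and 89.8 CPM in endothelial cells, and at most 8.05 CPM in the fibroblasts, pericytes, ductal cells and endocrine classes of either library.

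A highest class could be compared for the 30 members with at least 20 UMIs in each library, among the 10 classes with at least 50 cells in both. It was the same class in both libraries for 22 of the 30, which were 18 of 23 ligands and 4 of 7 receptors. Macrophages were the highest class of 10 ligands in vehicle and 11 in FAKi, and of 5 receptors in each. Annotated T and B cells were not candidates. In vehicle, Ccl5 had 1133 CPM in T cells against 368 in macrophages, and Cxcr4 had 191 CPM in B cells against 70.0 in macrophages. The 8 that differed were Cxcl14, Ccl2, Ccl7, Ccl8 and Ccl25 among ligands and Cxcr4, Cxcr6 and Ccr10 among receptors. In their highest classes Cxcr6 had only 4.77 and 4.66 CPM and Ccr10 1.06 and 1.97 CPM. Without the top cell, FAKi fibroblast levels went from 27.4 to 5.13 CPM for Ccl8 and from 39.4 to 17.1 CPM for Ccl7.

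Macrophages were the leading source of the neutrophil attractant Cxcl2, with 1982 CPM in vehicle (1903 to 2064) and 1672 CPM in FAKi (1561 to 1788). The inflammatory ligands Ccl3 and Ccl4 were also highest there. Ccl4 had 1384 and 1666 CPM, with a UMI in 63 of 129 and 29 of 55 cells. Ccl3 had 506 and 645 CPM. Cxcl16, a membrane-bound scavenger and Cxcr6 ligand, had 471 and 539 CPM, and the interferon-inducible Cxcr3 ligand Cxcl10 had 323 and 325 CPM. All 5 of these ligands lay within 2-fold between the libraries in this class over all cells. In cells under 5% mitochondrial counts the ratio of FAKi to vehicle went from 1.28 to 2.01 for Ccl3 and from 1.2 to 1.89 for Ccl4. Ccl9, Ccl6 and Ccl12, which attract mononuclear cells, were found at 134 and 106 CPM, 87.5 and 74.7 CPM, and 45.8 and 47.2 CPM. The ratio for Ccl12 was 1.03, but 2.95 in cells under 5% mitochondrial counts, 2.64 by the mean of each cell's CPM, and 0.604 once cells under 1000 detected genes were left out.

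The stroma carried a different set. Cxcl12, the constitutive ligand of Cxcr4, had 438 and 375 CPM in fibroblasts, 229 and 224 CPM in endothelial cells, and 197 and 149 CPM in pericytes. Pericytes were highest for the Ccr7 ligand Ccl19, at 947 CPM in vehicle (879 to 1018) and 624 CPM in FAKi (530 to 731), and for the eosinophil attractant Ccl11, at 541 and 560 CPM. They were also highest for Cxcl1, another ligand of neutrophils, with 523 and 338 CPM. Cx3cl1 (fractalkine), a membrane-tethered ligand, had 37.0 and 29.9 CPM in endothelial cells, 21.1 and 22.0 CPM in α-cells, and 13.3 and 14.3 CPM in δ-cells. In α-cells its UMIs were spread thinly, over 67 of 273 and 108 of 434 cells with at most 3 in any cell. Ccl27a and Ccl28, the skin and mucosal ligands of Ccr10, were low, with Ccl27a highest in ductal cells (27.2 and 20.7 CPM) and Ccl28 highest in δ-cells (8.57 and 7.40 CPM).

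Receptors followed the leukocytes. Cx3cr1, which marks resident macrophages, had 264 CPM in vehicle macrophages (236 to 295) and 319 CPM in FAKi macrophages (271 to 372). At 1000 UMIs drawn per cell, 18.8% (22 of 117; exact binomial interval 12.2 to 27.1) and 25.5% (12 of 47; 13.9 to 40.3) of macrophages had a UMI of it. Without thinning these were 65 of 129 and 35 of 55 cells, at median depths of 7423 and 7734 UMIs. At the same drawn depth 0 of 1063 and 0 of 1320 β-cells had one. This allows up to 0.282% and 0.227% of β-cells with a UMI at that depth, of which a median of 55.7% and 55.5% was insulin, and does not limit the share that expresses the gene. The macrophage intervals of the libraries overlapped, and no difference was detectable at this depth.

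Ccr2, the monocyte receptor, had 154 and 124 CPM in macrophages and 117 and 47.1 CPM in annotated T cells. It had 352 CPM in the 9 FAKi cells annotated as B cells, where all 27 of its UMIs lay in the 5 cells with Xcr1. Ccr1 had 64.2 and 78.7 CPM in macrophages. Cxcr6, carried by tissue-resident and memory T cells, had 138 and 48.8 CPM in annotated T cells. Ccr7, which guides lymphocytes and mature dendritic cells to Ccl19 and Ccl21, had 281 CPM in vehicle B cells and 206 CPM in vehicle T cells, against 104 and 3.49 CPM in the FAKi cells with those labels. Of the B cell homing receptors, Cxcr5 had 39.5 CPM in vehicle B cells and 0 in the FAKi cells so labelled, where a count of 0 allows up to 39.1 CPM. Cxcr3 had 32.4 and 5.23 CPM in annotated T cells, and Ccr6 had 45.8 and 26.1 CPM in annotated B cells.

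Cxcr4 was the receptor found most widely outside leukocytes. It had 191 CPM in vehicle B cells, 70.0 and 43.3 CPM in macrophages, and 56.1 CPM (48.8 to 64.1) and 78.5 CPM (65.0 to 94.0) in endothelial cells. The endothelial ratio of FAKi to vehicle was 1.40 (1.11 to 1.76, exact conditional binomial interval). At 1000 UMIs per cell 5.85% of 530 vehicle and 7.51% of 253 FAKi endothelial cells had a UMI of it (101 of 543 and 65 of 269 unthinned), with intervals of 4.01 to 8.20 and 4.58 to 11.5, while 0 of 1063 and 0 of 1320 β-cells had one.

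For each pair of a ligand and its receptor, the classes can be set side by side. Cxcl12 lay highest in fibroblasts and Cxcr4 in leukocytes and endothelium, and Cx3cl1 in endothelial and α-cells faced Cx3cr1 in macrophages. Cxcl16 was found in macrophages and ductal cells and Cxcr6 in annotated T cells. Ccl19 in pericytes and Ccl21a in endothelial cells faced Ccr7 in vehicle lymphocytes. The Ccr2 ligands Ccl2, Ccl7, Ccl8 and Ccl12 came from stroma and macrophages, and the Ccr1 ligand Ccl3 came from the same macrophage class as its receptor. The neutrophil receptor Cxcr2 was at 5.0 and 5.90 CPM in macrophages, from 6 and 3 UMIs, so that its ligands Cxcl1 and Cxcl2 were abundant while the receptor was barely counted. Other receptors were sparse: Ccr9, the Ccl25 receptor, had 16.7 and 11.8 CPM in macrophages, and Ccr10 had 0.781 and 0.182 CPM in β-cells. Ccl25 itself was low everywhere, with 11.5 and 6.45 CPM in ductal cells and 7.14 and 9.32 CPM in endothelial cells. Cxcl9, also a Cxcr3 ligand, had 10.0 and 0 CPM in macrophages, where a count of 0 allows up to 5.90 CPM in FAKi. Ccl20, the Ccr6 ligand, had 5.44 and 0.921 CPM in ductal cells, where the Cxcr2 ligand Cxcl5 had 6.72 and 0.921 CPM, with 37 of the 42 vehicle UMIs of Cxcl5 in 1 cell.

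Members were set side by side between the libraries. Over macrophages, endothelial cells, fibroblasts, pericytes and ductal cells, 74 pairs of a member and a class had at least 20 UMIs. Of these, 26 (35.1%) were at least 2-fold lower in FAKi, where the same rule called 5.99% of 46548 pairs over all genes. At least 2-fold higher were 2 of the 74 (2.70%), where all genes gave 2.70%. A library at 0 was set to 3 counts. The counts lean on the vehicle library, which had more UMIs than FAKi in each of these classes (6247503 and 2172064 in ductal cells), so that a member could pass the minimum through vehicle alone. Of the 26, 13 had 0 FAKi UMIs, 7 had 1 to 4, and 6 had more. With at least 20 UMIs asked of each library, 5 of 43 pairs were lower (Cxcl2 and Cxcl10 in ductal cells, Cxcl10 in endothelial cells, and Ccl2 and Cxcl13 in fibroblasts) and 1 was higher (Cxcl14 in macrophages), against 1.07% and 1.71% of 26139 pairs over all genes. This limit was added after the values were seen and drops members that are near 0 in either library. The counts therefore describe these libraries and are not read as a direction of the members as a group. The 26 were also not 26 independent results, since several members came from the same few cells. Among members found in at least 10 cells of the class, a limit added after the values were seen, 13 of 59 were lower (22.0%) and 1 was higher, against 5.72% and 2.63% of all genes. With at least 50 UMIs, 16 of 57 were lower and 1 was higher, against 3.28% and 1.31% of all genes.

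**Figure D2:**
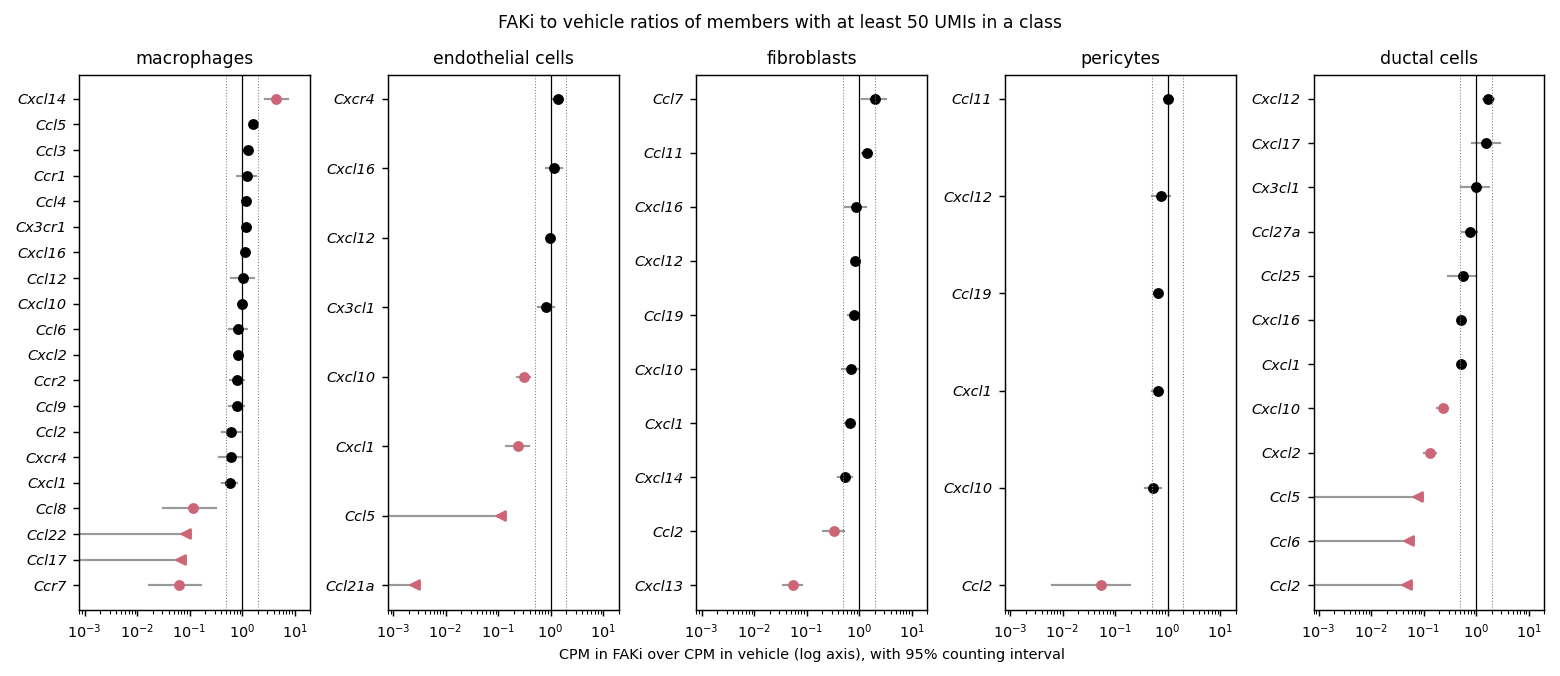
Ratio of CPM in FAKi to CPM in vehicle (x, log axis) for members with at least 50 UMIs in each of 5 classes. Points are ratios (red where at least 2-fold), triangles are bounds with the FAKi library at 0 set to 3 counts, grey lines are 95% counting intervals, and dotted lines mark 2-fold. In macrophages Cxcl10 lies at 1.01 and Cxcl2 at 0.843, while Cxcl2 and Cxcl10 in ductal cells lie at 0.135 and 0.229.

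In ductal cells, of 17 members tested, 9 were at least 2-fold lower and 0 higher, with 3.42% and 2.35% of all genes of the class called. Of the 9, 5 (Ccl2, Ccl3, Ccl4, Ccl5 and Ccl6) had 0 FAKi UMIs and Ccl20 and Cxcl5 had 2 each, so that 7 passed the minimum through vehicle, and Cxcl2 and Cxcl10 had 62 and 82 FAKi UMIs. Of the 9, 3 (Cxcl2, Cxcl10 and Ccl20) were found in at least 10 cells, and macrophages, endothelial cells and fibroblasts had 3 such lower members each. Cxcl2 had 212 CPM in vehicle (201 to 223) and 28.5 CPM in FAKi (21.9 to 36.6), a ratio of 0.135 (0.103 to 0.174). Cxcl10 had 165 CPM (155 to 175) and 37.8 CPM (30.0 to 46.9), a ratio of 0.229 (0.181 to 0.287). Cxcl16 and Cxcl1 came close to the 2-fold limit without reaching it. Cxcl16 had 253 and 132 CPM with a ratio of 0.521 (0.458 to 0.591), and Cxcl1 had 360 and 185 CPM with a ratio of 0.514 (0.461 to 0.571). Cxcl12 went the other way, with 30.3 and 52.0 CPM and a ratio of 1.72 (1.35 to 2.18). Cxcl16 passed the 2-fold limit in cells under 5% mitochondrial counts (0.487), and Cxcl1 did so without the top cell of each library (0.479).

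Of the 3 CXC ligands at least 2-fold lower in ductal cells, Cxcl2 and Cxcl10 were spread over many cells, while Cxcl5 lay mostly in 1 cell. Cxcl2 was found in 120 of 498 vehicle and 14 of 156 FAKi cells, Cxcl10 in 142 and 23, and Cxcl16, which was within 2-fold, in 393 and 88, at median depths of 9546 and 9661.5 UMIs. At 1000 UMIs per cell the shares were 9.90% (7.41 to 12.9) and 0.645% (0.0163 to 3.54) for Cxcl2, 10.3% (7.77 to 13.3) and 1.94% (0.401 to 5.55) for Cxcl10, and 21.2% (17.7 to 25.1) and 11.6% (7.03 to 17.7) for Cxcl16. For Cxcl1 they were 21.2% (17.7 to 25.1) and 16.8% (11.3 to 23.6), with overlapping intervals. In annotated T cells, the class set for comparison, the same shares were 4.22% and 7.69% for Cxcl2, 6.02% and 7.69% for Cxcl10, 3.01% and 0 for Cxcl1, and 0 and 3.85% for Cxcl16, at median depths of 3763.5 and 13826.5 UMIs. The T cell class is a poor reference for free RNA, since only 3 of its 28 FAKi cells had Cd3e, Cd3d or Trac. Its vehicle level of S100a8, 2471 CPM, came from 3 of 168 cells. In β-cells the shares were 0.0941% and 0.0758% for Cxcl2 and 0.282% and 0.152% for Cxcl10, at median depths of 30792.5 and 30427.5 UMIs. The FAKi ductal levels of 28.5 and 37.8 CPM for Cxcl2 and Cxcl10 stood beside 0.208 and 4.69 CPM in FAKi β-cells.

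**Figure D3:**
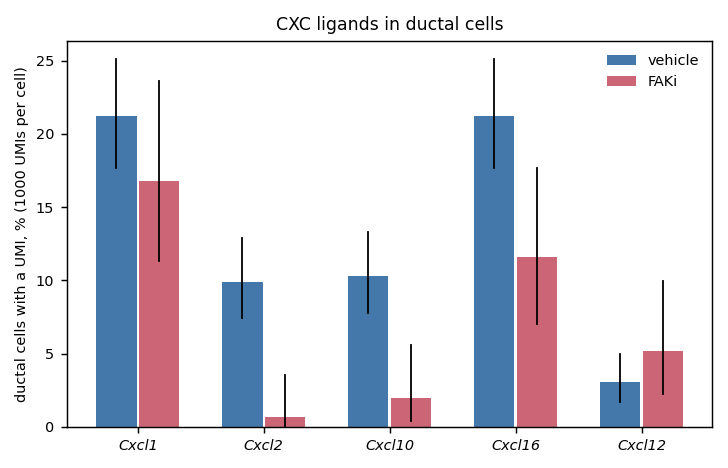
Share of ductal cells with at least 1 UMI of 5 CXC ligands after drawing 1000 UMIs per cell (y, percent), in vehicle (blue, 495 cells) and FAKi (red, 155 cells). Lines are exact 95% binomial intervals, which do not overlap between the libraries for Cxcl2 (9.90% and 0.645%) and Cxcl10 (10.3% and 1.94%) and barely touch for Cxcl16.

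In the vehicle ductal class, cells rich in Cxcl2 were compared with the rest for Cxcl1 and Cxcl10. The 38 cells with at least 10 UMIs of Cxcl2, a set chosen after the values were seen, held Cxcl1 at 999 CPM against 287 CPM in the other 460, and Cxcl10 at 284 against 151 CPM, with a UMI of Cxcl10 in 22 of the 38 and 120 of the 460. They held Nfkbia, the feedback inhibitor of NF-κB, at 2681 CPM against 1171, and the adhesion molecule Icam1 at 823 CPM against 428. Their median depth was 13747.5 UMIs, against 9332 in the others. In FAKi 2 of 156 ductal cells reached 10 UMIs of Cxcl2.

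An NF-κB and inflammatory list was read beside these ligands. Of its 10 genes, 6 had enough UMIs in ductal cells, of which 3 were at least 2-fold lower and 0 higher, against 3.42% and 2.35% of all genes, with a median log2 ratio of −1.29. They were Tnfaip3, another NF-κB feedback inhibitor (66.1 and 16.6 CPM), Tnf (26.6 and 8.75 CPM) and Vcam1 (18.9 and 2.30 CPM). Nfkbia stood at 1324 and 669 CPM. Of 13 dissociation and immediate early genes, a list that also holds heat-shock genes, 1 was at least 2-fold lower and 0 higher, with a median of −0.17. It was Ier3, at 1909 and 790 CPM. Within 2-fold, Nr4a1 had 458 and 268 CPM and Junb 6697 and 4453 CPM, while Fos had 4508 and 5339 CPM and Jun 2942 and 3738 CPM. The heat-shock genes Hspa1a and Hspa1b had 133 and 218 CPM and 55.5 and 105 CPM. The part of any of these in the ligand levels was not tested.

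The bases before the start of Cxcl1, Cxcl2 and Cxcl10 are shown because these inducible ligands had lower ductal levels in FAKi, Cxcl1 by less than 2-fold. They are the 250 bases before each start from RefSeq, build GRCm38.p6, given 5′ to 3′ on the strand of the gene. Of the 46 members, 33 had an entry. Capitals mark the NF-κB-like letters GGGANTTNC and, in Cxcl10 alone of the 3, the interferon response element-like letters GAAANNGAA, each searched on both strands.
Cxcl1, chr5:90890995-90891244, plus strand: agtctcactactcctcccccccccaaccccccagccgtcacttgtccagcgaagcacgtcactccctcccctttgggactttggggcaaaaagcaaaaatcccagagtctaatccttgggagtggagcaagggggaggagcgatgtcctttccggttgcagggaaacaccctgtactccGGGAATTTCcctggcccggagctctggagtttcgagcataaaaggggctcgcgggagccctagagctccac
Cxcl2, chr5:90903649-90903898, plus strand: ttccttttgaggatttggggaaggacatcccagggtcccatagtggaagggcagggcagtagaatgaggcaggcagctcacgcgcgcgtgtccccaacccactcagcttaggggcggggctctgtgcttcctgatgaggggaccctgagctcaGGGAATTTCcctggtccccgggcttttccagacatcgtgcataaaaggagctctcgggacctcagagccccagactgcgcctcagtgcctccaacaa
Cxcl10, chr5:92348890-92349139, minus strand: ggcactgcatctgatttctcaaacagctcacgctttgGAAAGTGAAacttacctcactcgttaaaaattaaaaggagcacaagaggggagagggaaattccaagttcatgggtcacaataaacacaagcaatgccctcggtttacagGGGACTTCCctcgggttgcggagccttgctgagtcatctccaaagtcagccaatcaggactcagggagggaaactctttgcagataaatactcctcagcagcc

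The NF-κB-like match began 71 bases before the start of Cxcl1, 97 before Cxcl2 and 103 before Cxcl10. These letters were chosen with the sequences in view. They occurred in 7 of the 33 members with an entry and in 3.54% of all 32851 promoters of the same length. GAAANNGAA began 213 bases before the start of Cxcl10, and occurred in 7 of the 33 members and in 7.13% of all promoters. A match describes letters only and was not tested as a binding site.

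Other lower members of the ductal class rested on a handful of cells. Ccl6 had 26.6 CPM in vehicle and 0 in FAKi, at least 19.2-fold lower. All 166 of its UMIs lay in 2 cells rich in the goblet cell genes Zg16, Tff3 and Muc2, of which Tff3 was found in 0 of the other 496 cells. Ccl2, the main monocyte attractant, had 28.8 CPM and 0, at least 20.9-fold lower, with all 180 UMIs in 3 cells. The same 3 cells held 109 of the 110 UMIs of Ccl5, which had 17.6 CPM and 0 and was at least 12.7-fold lower. Without the cell holding most UMIs in each library, the FAKi to vehicle bound moved from 0.0479 to 0.176 for Ccl2, from 0.0520 to 0.157 for Ccl6, and from 0.0784 to 0.508 for Ccl5, which then missed the 2-fold limit. Ccl3 and Ccl4 had 41 UMIs each in vehicle, 40 of them in 1 cell.

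In endothelial cells, 6 of 12 members were at least 2-fold lower in FAKi and 0 higher, where 4.86% and 1.53% of all genes of the class were called. The sharpest was Ccl21a, a lymphatic ligand of Ccr7 and 1 of several near-identical gene copies whose reads may be shared. It had 760 CPM in vehicle (732 to 788) and 0 UMIs in FAKi, where a count of 0 allows up to 2.0 CPM, so that it was at least 381-fold lower. Its 2874 vehicle UMIs lay in 14 of 543 cells. The 13 cells with at least 3 of them all had Lyve1, Prox1, Mmrn1 and Reln, genes of lymphatic endothelium, found in 2, 22, 1 and 1 of the other 530 cells. FAKi endothelial cells with Lyve1 numbered 2 of 269 against 15 of 543 in vehicle, with 36 and 321 UMIs of Lyve1, and those with Mmrn1 numbered 2 and 14, with 37 and 388 UMIs of Mmrn1. Fewer cells of this kind and a lower level per cell cannot be told apart here.

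Cxcl10 had 120 and 36.6 CPM in endothelial cells, a ratio of 0.305 (0.226 to 0.404), with a UMI in 52 of 543 vehicle and 5 of 269 FAKi cells. Of the 55 FAKi UMIs 35 lay in 1 cell, and without the top cell of each library the ratio was 0.125. Cxcl1 had 52.6 and 12.6 CPM, a ratio of 0.240 (0.142 to 0.385), in 59 and 14 cells. Ccl5, Ccl3 and Ccl4 also passed, at least 8.88-fold, 4.11-fold and 3.31-fold lower, each from 1 vehicle cell that held 66, 30 and 23 UMIs of them and also had Nkg7 and Ptprc, genes of cytotoxic lymphocytes and of all leukocytes. The same cell, of 17328 UMIs, had 34 UMIs of the endothelial gene Pecam1 (1962 CPM, against 1471 in the other 542) and 0 of Cd3e and Trac. Without that cell no fold could be given for any of the 3. In contrast, Cxcl12 (ratio 0.980, 0.862 to 1.11), Cxcl16 (1.18, 0.822 to 1.68) and Cx3cl1 (0.809, 0.565 to 1.14) had intervals that included 1.

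Adhesion genes were read in the same class. In the inflammatory list 4 of 7 tested genes were at least 2-fold lower and 0 higher, where 4.86% and 1.53% of all genes of the class were called. P-selectin (Selp) had 373 and 100 CPM, E-selectin (Sele) 32.3 and 6.65 CPM, Icam1 173 and 83.8 CPM, and Tnfaip3 64.8 and 28.6 CPM. The atypical receptor Ackr1, which carries chemokines across venular endothelium, had 196 and 44.6 CPM, a ratio of 0.227 (0.174 to 0.292), and the Cxcl12 scavenger Ackr3 had 186 and 125 CPM. Of the 13 dissociation and immediate early genes 4 were at least 2-fold lower in this class and 0 higher, against the same 4.86% and 1.53%, among them Atf3 (489 and 162 CPM) and Egr1 (1626 and 806 CPM). The heat-shock gene Hspa1a had 610 and 1180 CPM, a ratio of 1.94 that stayed under the limit, and Hspa1b 269 and 348 CPM. Their part in the chemokine levels was not tested.

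In fibroblasts, 3 of 12 members were at least 2-fold lower and 1 higher, with 7.64% and 4.03% of all genes called. Cxcl13, which draws B cells through Cxcr5, had 714 CPM in vehicle (681 to 747) and 39.4 CPM in FAKi (24.9 to 59.0), a ratio of 0.0551 (0.0349 to 0.0830), or 0.0111 as a bound without the top cell of each library. It was found in 10 of 264 vehicle cells and 1 of 63 FAKi cells. The 10 vehicle cells also held Wt1, a gene of mesothelium, at 543 CPM against 11 in the other 254, and Enpp2 at 2465 against 41.4 CPM. The single FAKi cell had Wt1, Enpp2 and Trf as well. Ccl2 had 123 and 41.1 CPM, a ratio of 0.334 (0.210 to 0.506), in 21 of 264 and 8 of 63 cells, and 142 of its 310 vehicle UMIs lay in 1 cell. The ratio without the top cell of each library was 0.462. Ccl27a was called from 29 and 3 UMIs. Just outside the limit, the Ccr2 ligand Ccl7 had 19.9 and 39.4 CPM, a ratio of 1.98 (1.15 to 3.31), and Cxcl14 had 154 and 83.8 CPM, a ratio of 0.543 (0.395 to 0.732). Without the top cell of each library both passed the limit, at 3.31 and 0.393.

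In pericytes, 2 of 8 members were at least 2-fold lower and 0 higher, with 6.69% and 3.0% of all genes called. Ccl2 had 153 CPM in vehicle (126 to 183) and 8.05 CPM in FAKi (0.975 to 29.1), from 117 UMIs in 13 of 137 cells and 2 UMIs in 2 of 64 cells, a ratio of 0.0528 (0.00632 to 0.195). The vehicle level of Ccl2 was 87.4 CPM without the top cell, outside its counting interval. It was 98.1 CPM both in cells under 5% mitochondrial counts and by the mean of each cell's CPM. Ccl7 had 33.9 CPM and 0, at least 2.81-fold lower, and its vehicle level was 19.6 CPM without the top cell. Ccl19 (ratio 0.660, 0.551 to 0.785) and Cxcl1 (0.647, 0.505 to 0.820) were within 2-fold, and Ccl11 (1.03, 0.848 to 1.26) differed by less than its counting error. In cells under 5% mitochondrial counts the direction turned for Cxcl1 (1.11) and for Ccl11 (0.723). Cxcl10 had 301 and 161 CPM, but 37 of its 40 FAKi UMIs lay in 1 cell, and without the top cell of each library its ratio of 0.535 became 0.0692. In cells under 5% mitochondrial counts it was 2.90. In the dissociation list of this class Zfp36 was at least 2-fold lower and Hspa1b at least 2-fold higher (575 and 1160 CPM).

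**Figure D4:**
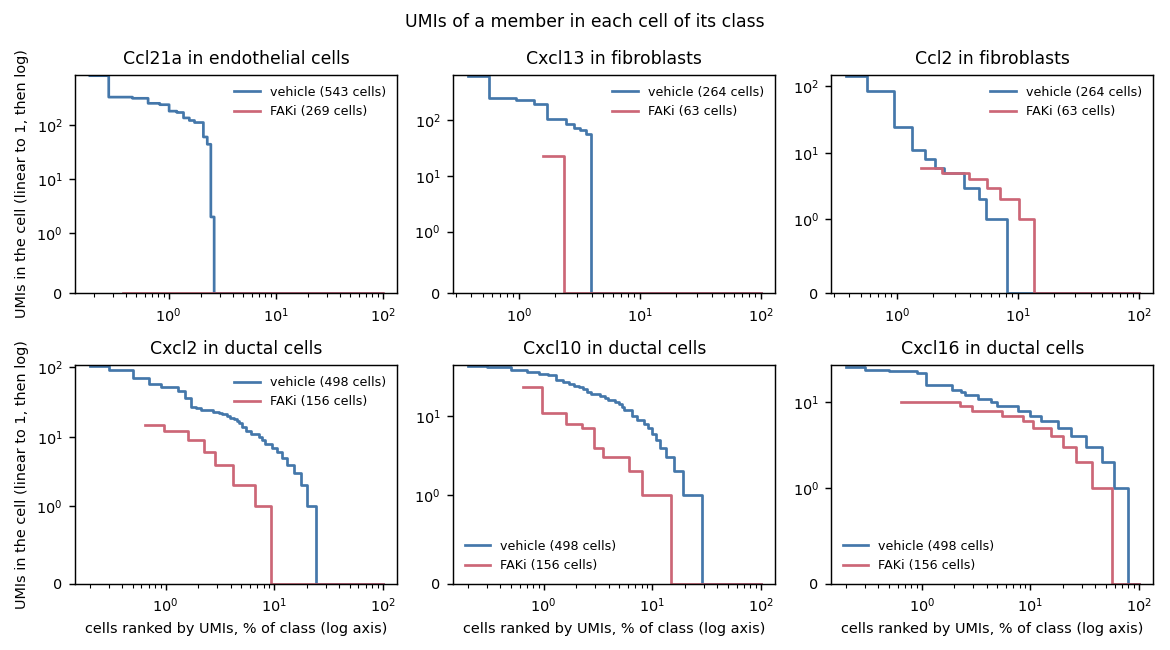
UMIs per cell (y, linear to 1 and then log) for 6 pairs of a member and a class, with cells ranked from most to fewest and given as a percent of the class (x, log axis), in vehicle (blue) and FAKi (red). Ccl21a and Cxcl13 fall to 0 after 14 of 543 and 10 of 264 vehicle cells, whereas Cxcl2, Cxcl10 and Cxcl16 in ductal cells have the FAKi line under the vehicle line at each rank where both are above 0.

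In macrophages, 6 of 25 members were at least 2-fold lower and 1 higher, with 9.04% and 2.87% of all genes called. Ccl17 and Ccl22, the Ccr4 ligands of mature dendritic cells, had 85.0 and 68.4 CPM in vehicle and 0 in FAKi, at least 14.4-fold and 11.6-fold lower. Ccr7 had 127 and 7.87 CPM, a ratio of 0.0621 (0.0167 to 0.162). These shared cells. The 8 vehicle cells with at least 2 UMIs of Ccl22 held Ccr7 at 768 CPM, Ccl17 at 1064 CPM and Fscn1, an actin-bundling gene of mature dendritic cells, at 615 CPM. They had 0 UMIs of the macrophage genes C1qa and Adgre1, which 78 and 64 of the other 121 cells carried. Fscn1 was found in 9 of 129 vehicle and 1 of 55 FAKi cells of the class.

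Ccl8, a further Ccr2 ligand, had 65.9 and 7.87 CPM in macrophages, a ratio of 0.119 (0.0318 to 0.318), but 57 of its 79 vehicle UMIs lay in 1 cell. Ccl7 and the eosinophil attractant Ccl24 were lower from 18 and 37 vehicle UMIs. Cxcl14, an orphan homeostatic ligand, was the higher member, at 20.8 CPM in vehicle (13.5 to 30.8) and 94.4 CPM in FAKi (69.6 to 125), a ratio of 4.53 (2.74 to 7.67), found in 14 of 129 and 10 of 55 cells. Of its 48 FAKi UMIs 22 lay in 1 cell, and without the top cell of each library the ratio was 3.07. Ccl5, which attracts T cells and monocytes, had 368 and 600 CPM, but 294 of its 305 FAKi UMIs lay in 1 cell, and without the top cell of each library its ratio of 1.63 became 0.110. In annotated T cells Ccl5 had 1133 CPM in vehicle and 1.74 CPM in FAKi, next to 290 and 0 UMIs of the cytotoxic gene Nkg7. Among macrophage members with ratios near 1, Cxcl10 (1.01, 0.833 to 1.21), Cx3cr1 (1.21, 0.992 to 1.46) and Cxcl16 (1.14, 0.987 to 1.32) had intervals that included 1. Cxcl1 in macrophages had 173 and 100 CPM, a ratio of 0.581 (0.419 to 0.793). In the inflammatory list of this class Il1a was higher (46.7 and 159 CPM), and 0 of 8 tested genes were at least 2-fold lower.

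In the β-, α- and δ-cells, 20 pairs of a member and a class had at least 20 UMIs, of which 5 were at least 2-fold lower and 1 higher, with 1.83% and 1.54% of all genes called. Levels were low throughout. Cxcl10 had 17.8 and 5.42 CPM in δ-cells, a ratio of 0.305 (0.194 to 0.467), against 22.2 and 16.6 CPM in α-cells (0.751, 0.556 to 1.02) and 3.06 and 4.69 CPM in β-cells (1.53, 1.19 to 1.97). The direction turned in α-cells under 5% mitochondrial counts (1.31) and in β-cells by the mean of each cell's CPM (0.836). Cxcl1 was higher in α-cells, with 2.64 and 12.8 CPM and a ratio of 4.86 (2.50 to 10.5), found in 9 of 273 and 23 of 434 cells, and the ratio was 1.5 in cells under 5% mitochondrial counts. In β-cells Cxcl1, Cxcl2 and Ccr10 were called lower at 1.26 and 0.417 CPM, 0.661 and 0.208 CPM, and 0.781 and 0.182 CPM. The calls in δ-cells were Cxcl10 and Cxcl1. The 13 dissociation and immediate early genes had a median log2 ratio of 0.36 in α-cells, −0.38 in β-cells and 0.21 in δ-cells. At least 2-fold higher were 1 in α-cells (Hspa1b), 0 in β-cells and 2 in δ-cells (Hspa1a and Hspa1b), and 0 were lower. Their part in the chemokine levels was not tested. Cx3cl1 was near equal in α-cells (1.04, 0.782 to 1.39) and δ-cells (1.07, 0.760 to 1.52), and had 1.65 and 2.87 CPM in β-cells (1.73, 1.24 to 2.44).

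Other genes of the chemokine system were read from a list of 11. In endothelial cells 6 had enough UMIs, of which 2 were lower and 1 higher, in fibroblasts 2 of 5 were lower, in ductal cells 1 of 4, in β-cells 1 of 2, and in macrophages 0 of 4 and pericytes 0 of 3 were called in either direction. The shares of all genes called are those given above by class, and for β-cells over the endocrine classes. In endothelial cells Ackr2, which scavenges inflammatory CC ligands, was at least 2-fold higher (9.25 and 18.6 CPM) while Ackr1 was lower. The chemerin receptor Cmklr1 was at least 2-fold lower in endothelial cells (22.5 and 9.98 CPM) and fibroblasts (35.7 and 17.1 CPM), and Ccrl2, which presents chemerin, was lower in ductal cells (26.1 and 5.52 CPM). Xcl1 in fibroblasts and Rarres2 in β-cells were also called lower, the last from 14 and 6 UMIs. Chemerin itself (Rarres2) had 1068 and 838 CPM in fibroblasts and 894 and 938 CPM in pericytes. The platelet-factor gene Pf4 had 168 and 106 CPM in macrophages. Of 20 signalling and trafficking genes, 11 were tested in ductal cells, where Rgs1 was at least 2-fold lower (9.76 CPM and 0) and 0 were higher. In endothelial cells 12 of the 20 were tested, of which 1 was at least 2-fold lower and 0 higher. It was Ptk2b, at 23.3 and 9.98 CPM, a ratio of 0.429 (0.230 to 0.747), against 31.7 and 24.4 CPM in ductal cells. Ptk2, which encodes the kinase targeted by PF562271, had 115 and 102 CPM in endothelial cells and 27.1 and 33.1 CPM in ductal cells. Among the proteases that release or trim chemokines, Adam10 had 44.0 and 44.7 CPM and Dpp4 75.1 and 71.4 CPM in ductal cells. Adam10 sheds Cxcl16 and Cx3cl1 from the membrane. The gelatinase Mmp9 had 79.2 CPM and 0 in macrophages, the class in which neutrophil markers differed.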

How the data were processed

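The submitters' processing notes name Cell Ranger, Seurat 3.1 and mm10. The authors made gene by cell matrices, filtered and annotated cells, and deposited raw UMI counts per gene and cell, each cell's library and cell type, and its percent of mitochondrial counts, under 8% in every cell. From the 6959 cells, UMIs were summed per class and library (Python 3.11.15, numpy, scipy) and divided by the class total. Members, gene lists and rules were chosen with earlier results of these data known, and motif letters and sets of cells picked by a member's UMIs after the values were seen. Named genes were the members of fixed ligand and receptor pairs, and ratios were given from 50 UMIs. Ratios and bounds of pairs under 50 UMIs are given outside that rule, for called pairs chosen after their values were seen. With 1 library per condition no test was run. Poisson, binomial and conditional binomial 95% intervals cover counting error only. A library at 0 was set to 3 counts. Calls and intervals were tested on simulated data, which does not show that they hold for members carried by a few cells in these libraries. Cells under 1000 UMIs were left out of thinned shares. Doublets were called with Scrublet in scanpy and kept in the values given. Some genes are not reported here, in the text or the plots, but stay in the counts.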

Additional observations from a re-analysis of the deposited data

Results flagged for a closer look

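For 3 members the ratio of FAKi to vehicle was at least 2-fold higher in 1 class and at least 2-fold lower in another, with counting intervals on opposite sides of 1. The difference between classes was not tested, since each condition had 1 library. Cxcl1 had a ratio of 4.86 in α-cells, against 0.240 in endothelial cells and 0.330 in β-cells. Ccl2 had a ratio of 9.61 in acinar cluster 1, against 0.334 in fibroblasts and 0.0528 in pericytes, and a bound of 0.0479 in ductal cells. All 20 FAKi UMIs of Ccl2 in acinar cluster 1 lay in 1 cell. Ccl8 had a ratio of 17.2 in fibroblasts (1.59 and 27.4 CPM), against 0.119 in macrophages. Of the 16 FAKi UMIs of Ccl8 in fibroblasts, 13 lay in 1 cell.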

How the results depend on the processing

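No paired analysis was possible because each condition is 1 library and the numbered samples are its lanes. With 1 library per condition, sampling between mice cannot be told apart from treatment. The 26 lower and 2 higher pairs became 16 and 1 with at least 50 UMIs, 13 and 1 among genes in at least 10 cells, and 5 and 1 with at least 20 UMIs in each library. Higher pairs were 5 with at least 10 UMIs, 6 with a fold of 1.5, and 7 in cells under 5% mitochondrial counts. Under every other alternative run, each count stayed within 1.5 times its value. Of the 74 ratios of pairs with at least 50 UMIs, 57 of them in the 5 classes and 17 in the endocrine classes, those outside their counting interval numbered 18 in cells under 5% mitochondrial counts, 17 with the mean of each cell's CPM, 16 without the top cell, and at most 2 under each of the other 6 alternatives. Among these 74, none past 2-fold crossed 1, though Ccl5 in endothelial cells gave no ratio without its top cell. Called pairs under 50 UMIs were not run. Several ratios within 2-fold crossed 1, among them Cxcl10 in pericytes, from 0.535 to 2.90 in cells under 5% mitochondrial counts, and Ccl5 in macrophages, from 1.63 to 0.110 without the top cell. Leaving out the 20 most abundant genes, requiring 10 cells, requiring 20 UMIs in each library and taking all 12 classes as candidates were added after seeing the data. Levels moved more often than ratios. Of 60 levels of a member in its highest class, 31 lay outside their counting interval without the top cell. The same number was 29 without cells of at least 10% insulin UMIs and 29 without the 20 most abundant genes. It was 26 with the mean of each cell's CPM and 25 in cells under 5% mitochondrial counts. Class values at 0 in FAKi are limited by depth, with up to 5.90 CPM allowed in macrophages.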
